A study of Mus musculus with 11 samples.

Results

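The genes described here are 46 genes of mitosis and the mitotic spindle, taken as a named list and matched to array probes through the probes' RefSeq accessions. A gene counted as measured when its probe was well above background in at least 5 of 22 array channels, which left 43 of the 46, out of 26082 measured features in all. Ttk, Cenpf and Aurkb did not reach it, with 3, 2 and 0 channels. Of the 43, 37 would have passed on the intact mice alone, and 6 (Cdk1, Bub1, Ndc80, Kif2c, Kif15 and Ckap2l) passed only with the lesioned mice counted, so those 6 had to be higher there.

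The samples were total RNA from right-hemisphere cortex of 22 mice of 5 to 7 months on a C57/Bl6J background, on 11 Agilent arrays (A to F on slide 1 and I to M on slide 2) that each carried 1 mouse in Cy5 and another in Cy3. WT were intact wild-type mice (n = 6) and WTC wild-type mice with a focal cryolesion (n = 5). T were intact GFA2-tTa/TetO-VP16-CREB mice (n = 5), and TC the same genotype with a cryolesion (n = 6). The study asked what constitutively active CREB in astrocytes does to the injured cortex. Dry ice applied for 30 s made the lesion, and the cortex was collected on day 3 after it. In the transgenic mice a tetracycline-controlled activator under an astrocyte (GFAP) promoter switches on VP16-CREB, an always active form of the transcription factor CREB, so the transgene is aimed at astrocytes while the RNA comes from every cell in the tissue. In such bulk RNA, more cells of a dividing type and more RNA per dividing cell cannot be told apart.

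In mitosis, cyclin-dependent kinase 1 with its B-type cyclins drives the cell into division, the spindle attaches to chromosomes at kinetochores, and a checkpoint holds back the anaphase-promoting complex until every chromosome is attached. Polo and Aurora kinases act along the whole course, and central spindle proteins then guide the split into daughter cells. Neurons of adult cortex do not divide, while glia, vessel cells and invading blood cells can enter the cycle after an injury.

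All 11 arrays gave 56.6% to 65.3% of their spots well above background in each channel. The mean log2 level of the excitatory cortical neuron markers ran from 9.27 to 11.12 in WT and from 10.73 to 11.52 in T. Striatal neuron markers were well above background, with the exception of Drd2 in 1 WTC and 2 TC mice. The 6 WT mice were all on slide 1 and 5 of the 6 TC mice on slide 2. Groups were read from the titles; on 3 arrays (I, J and K) they disagree with what the second channel's label says.

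One lesioned animal stood apart in the levels of these genes. This was the TC mouse of array I (an intact transgenic mouse by its second-channel label), which gave the lowest level of its group for 41 of the 43 genes. Relative to the WT mean of each gene, its median over the 43 genes was -0.11 on the log2 scale, where the remaining TC mice had 1.02 to 2.62, the WTC mice 1.60 to 2.60 and the intact mice -0.27 to 0.37. Its mean level of 8 astrocyte markers was 12.74, inside the range of the other TC mice (12.71 to 13.12) and above that of the intact mice (11.88 to 12.21). Its microglia markers (11.80, where the others ran from 12.64 to 13.45) and its excitatory neuron markers (7.99, where they ran from 9.99 to 10.92) were below those of the other TC mice. A Dixon outlier test within groups, run on 11 genes and on the mean level of the 43, gave 0 flags in 48 tests. Separate-channel counts of called genes and medians that rest on TC are given with and without this mouse. So are values of the genes named in those comparisons by that fit, while marker medians are given only with it. It was singled out on the genes tested here, so the smaller p-values without it depend on that choice.

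**Figure D1:**
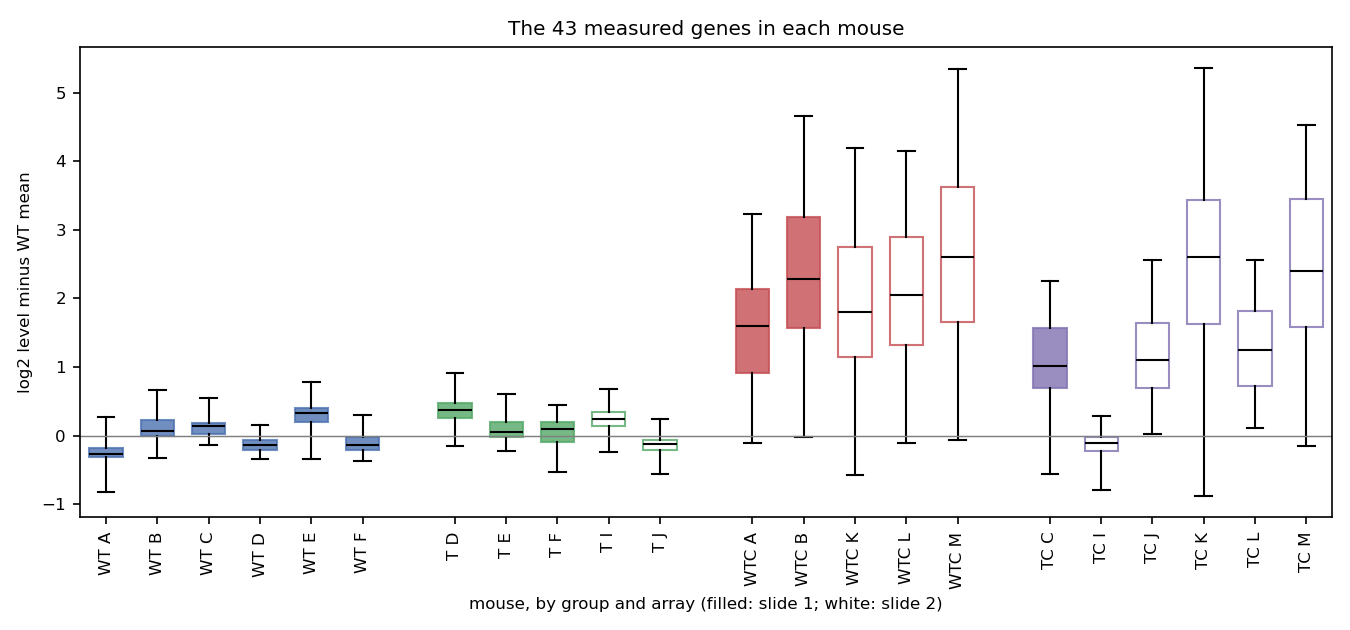
Levels of the 43 measured mitosis and spindle genes in each of the 22 mice, as log2 level minus the WT mean of the gene (y axis), by group and array (x axis). Boxes span the middle quartiles with the median as a line, whiskers reach the lowest and highest gene, and filled boxes are slide 1. The medians of the WTC mice lie between 1.60 and 2.60, and the TC mouse of array I lies at -0.11 among the intact mice.

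Cryolesion in wild-type cortex was the first comparison (WTC minus WT). In the limma fit of array ratios, the main test, the log2 ratio was above 0 for all 43 measured genes, with a median of 1.57 (2.97-fold) against 0.00 over all features. None of the 43 passed an adjusted p of 0.05 in it; the smallest was 0.084 for Prc1, and 39 of the 43 had an unadjusted p under 0.05, as did 3303 of 26082 features upward. In that fit 0.023% of all features were called up. A limma fit of the single channels with array as a random block, run as an alternative, called 41 of the 43 up at a median of 1.97 (3.93-fold), where 14.4% of all features were called up. With slide as a further term 40 were called (9.09% of all features), and within slide 1 alone, which holds 6 WT and 2 WTC mice, 42 were called (12.7% of all features).

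Among the 37 genes that pass on the intact mice alone, 35 were called up in the separate-channel fit, at a median of 2.11. The 5 WTC mice were all above the 6 WT mice for 40 of the 42 genes with a value in every mouse, and 9.31% of all features separated in this way. The exceptions were Anln and Pttg1. Those 42 include the 6 genes that passed the filter only with the lesioned mice counted. On the arrays that hold a WTC and a WT mouse together, the median ratio of the genes was 1.63 on array A and 2.53 on array B.

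**Figure D2:**
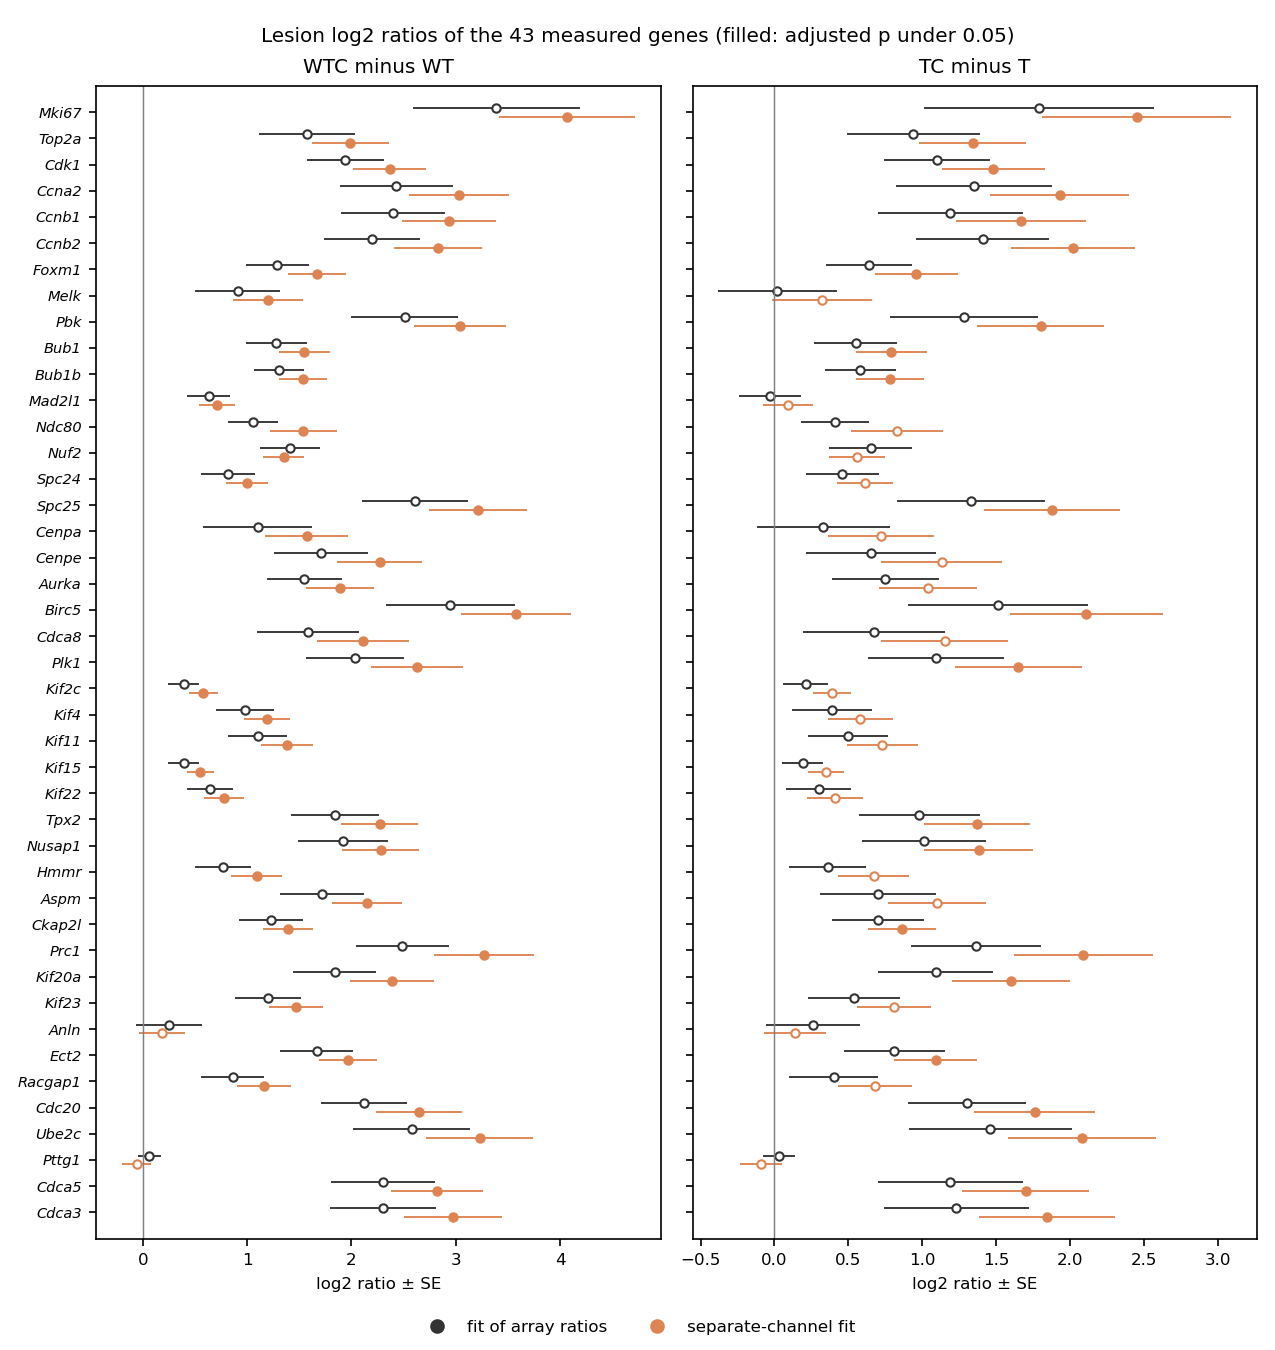
Lesion log2 ratios (x axis, with standard errors) of the 43 measured genes, ordered by role, for WTC minus WT and TC minus T. Black points are from the fit of array ratios and orange points from the separate-channel fit; filled points passed an adjusted p of 0.05. Mki67 lies farthest to the right in both panels and Pttg1 lies near 0.

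Promoters are shown for Prc1, Bub1b and Cdc20, the 3 genes with the smallest p in this comparison, because the genes moved together and a pair of short motifs is known from promoters of late cell cycle genes. These are the cell cycle homology region or CHR (searched as TTTGAA or TTCGAA) and the CCAAT box (searched as CCAAT). Each was searched on both strands, with no rule against overlapping matches. Below are the 250 bases before the start of each gene, 5′ to 3′ on the gene's strand, from RefSeq on GRCm38.p6, with matches in capitals. Prc1 lies on the plus strand at chr7:80294201-80294450, Bub1b on the plus strand at chr2:118597961-118598210 and Cdc20 on the minus strand at chr4:118437344-118437593.
Prc1: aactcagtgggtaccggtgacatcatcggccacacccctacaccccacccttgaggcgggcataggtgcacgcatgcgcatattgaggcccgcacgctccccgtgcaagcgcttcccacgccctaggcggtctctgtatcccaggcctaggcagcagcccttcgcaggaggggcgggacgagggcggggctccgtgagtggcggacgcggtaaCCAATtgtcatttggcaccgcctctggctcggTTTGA
Bub1b: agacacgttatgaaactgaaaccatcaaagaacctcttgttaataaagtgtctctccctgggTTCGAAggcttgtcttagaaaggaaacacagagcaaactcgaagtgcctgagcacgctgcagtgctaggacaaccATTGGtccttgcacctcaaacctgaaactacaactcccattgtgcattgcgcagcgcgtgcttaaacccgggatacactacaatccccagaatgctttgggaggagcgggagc
Cdc20: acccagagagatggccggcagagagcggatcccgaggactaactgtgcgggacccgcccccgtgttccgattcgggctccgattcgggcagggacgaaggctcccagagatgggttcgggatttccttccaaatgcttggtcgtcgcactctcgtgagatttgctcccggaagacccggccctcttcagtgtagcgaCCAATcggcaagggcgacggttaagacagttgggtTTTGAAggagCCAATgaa

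In Prc1 the CHR match begins 5 bases before the start and its last base lies past it, with a CCAAT match 37 bases before the start. Cdc20 has a CHR match that begins 18 bases before the start, between CCAAT matches 53 and 8 bases before it. In Bub1b a CHR match lies 188 bases before the start, a CCAAT match on the other strand 113 bases before it, and a further CHR match from base 41 after it. Of the 46 genes, 39 were in the promoter table. In windows of 300 bases (250 before the start and 50 after), 31 of those 39 (79.5%) held a CHR match, against 19.4% of all 27025 genes in the table. A CCAAT match was found in 28 (71.8%) against 37.9%, and both in 26 (66.7%) against 7.7%. These are matches of letters, not measured sites.

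Of the proliferation markers, Mki67 had the highest ratio of the 43 genes and Top2a lay near their median. Mki67, which encodes the Ki-67 antigen used to mark cycling cells, had log2 levels in WT of 6.46, 7.19 and 8.07 (lowest, median and highest). In WTC its levels were 10.51, 11.43, 11.48, 11.95 and 12.63. No WTC mouse came near the highest WT mouse. The log2 ratio was 3.39 ± 0.80 (SE; adjusted p = 0.1) in the fit of array ratios and 4.07 ± 0.65 (16.8-fold; adjusted p = 0.00044) by separate channels. Top2a, the topoisomerase that untangles sister chromatids, ran from 5.90 through 6.28 to 6.58 in WT and lay at 7.99, 8.07, 8.45, 8.62 and 8.85 in WTC. The groups were separate. Its ratios were 1.57 ± 0.46 (adjusted p = 0.13) and 1.99 ± 0.37 (3.98-fold; adjusted p = 0.0011).

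Cyclins, Cdk1 and the regulators of entry into mitosis had a median ratio of 2.20 over 7 genes in the fit of array ratios. In the separate-channel fit 7 of 7 passed. That fit called up 14.4% of all features, the share to set beside this and the following role groups. Of these 7 genes, Cdk1 passed the filter only with the lesioned mice counted, so it had to be higher there. Cdk1, the kinase of mitotic entry, was well above background in only 2 of 6 WT mice, at 5.96, 6.10 and 6.37 (lowest, median, highest). In WTC it stood at 7.98, 8.38, 8.61, 8.83 and 9.43. All WTC mice were thus above all WT mice, and the ratio was 2.37 ± 0.35 (5.17-fold; adjusted p = 0.00028) by separate channels and 1.94 ± 0.37 (adjusted p = 0.095) in the fit of array ratios. Ccnb1, its cyclin B1 partner, had WT levels of 6.17, 6.58 and 6.97 and WTC levels of 8.96, 9.55, 9.73, 9.78 and 10.47. The separate-channel ratio was 2.94 ± 0.45 (7.66-fold; adjusted p = 0.00033), from the brightest of 3 probes. In the fit of array ratios that probe gave 2.40 and the other 2 gave 0.72 and 0.82, so the size depends on the probe.

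Foxm1, the transcription factor of the late cell cycle, lay at 6.51, 6.74 and 7.11 in WT and at 8.08, 8.44, 8.56, 8.79 and 9.12 in WTC. Its separate-channel ratio was 1.67 ± 0.28 (3.18-fold; adjusted p = 0.00061). Of the other members of this group, Ccna2 (cyclin A2), Ccnb2 (cyclin B2) and the mitotic kinase Pbk had separate-channel ratios of 3.03, 2.83 and 3.04. The kinase Melk was lowest at 1.20 ± 0.34 (adjusted p = 0.017), and with slide as a term it no longer passed (1.11, adjusted p = 0.064).

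In the kinetochore and checkpoint group, 9 of 11 genes were measured and 9 of 9 passed in the separate-channel fit, at a median of 1.54. Of these, Bub1 and Ndc80 passed the filter only with the lesioned mice counted, so they had to be higher there. Bub1b, which encodes the checkpoint kinase-like protein BubR1, had WT levels of 6.44, 6.68 and 6.95. The WTC mice were all above them at 7.92, 7.93, 8.40, 8.47 and 8.74. The ratio was 1.31 ± 0.24 (adjusted p = 0.085) in the fit of array ratios and 1.54 ± 0.23 (2.90-fold; adjusted p = 0.00029) by separate channels. Members of the Ndc80 complex, which binds microtubule ends, differed widely in size, from 1.0 for Spc24 to 3.21 for Spc25 (9.28-fold) in the separate-channel fit, with Nuf2 at 1.35. Bub1 and Ndc80 were not well above background in any WT mouse. Against the lowest signal well above background on each WT array, they were at least 2.81-fold and at least 3.07-fold higher. The separate-channel fit gave 2.92-fold and 2.91-fold, and the fit of array ratios 2.43-fold and 2.09-fold. The bounds thus do not lie below every fitted value. The centromere proteins Cenpa (a histone variant) and Cenpe (a kinetochore motor) gave 1.57 and 2.27, and the checkpoint protein Mad2l1 the lowest ratio of the group, 0.71 ± 0.17 (adjusted p = 0.0062).

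Of the Aurora and Polo kinases and the chromosomal passenger complex, 4 of 5 genes were measured and 4 of 4 passed in the separate-channel fit. Birc5 (survivin, a passenger complex subunit) ran from 7.70 through 8.32 to 8.84 in WT and lay at 11.03, 11.62, 12.26, 12.42 and 13.15 in WTC. The gap between the groups exceeded the spread within either. The ratio was 3.58 ± 0.53 (12-fold; adjusted p = 0.00028) by separate channels, second to Mki67 among the 43. Its brightest probe gave 2.95 in the fit of array ratios, and its other probes 1.90 and 1.35. Plk1, the Polo kinase, had WT levels of 7.66, 7.90 and 8.23 and WTC levels of 9.95, 10.56, 10.65, 11.07 and 11.58. The groups did not overlap, and the separate-channel ratio was 2.63 ± 0.44 (6.17-fold; adjusted p = 0.00062). Aurka (Aurora A) and Cdca8 (borealin) gave 1.89 and 2.11.

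The 10 genes of spindle motors and spindle assembly had the lowest median of the role groups, 1.28 in the separate-channel fit, and 10 of 10 passed in it. Of these, Kif2c, Kif15 and Ckap2l passed the filter only with the lesioned mice counted, so they had to be higher there. Nusap1, a microtubule-binding spindle protein, was at 6.07, 6.36 and 6.93 in WT and at 8.12, 8.54, 8.85, 9.04 and 9.47 in WTC. Its separate-channel ratio was 2.28 ± 0.37 (4.85-fold; adjusted p = 0.00053). Tpx2, which activates Aurora A on the spindle, gave 2.27 and Aspm, a spindle pole protein, 2.15. A second Tpx2 probe gave only 0.20 in the fit of array ratios, where the brightest gave 1.84. The kinesins spanned smaller steps: 1.38 for Kif11, the motor that pushes spindle poles apart, 1.19 for Kif4 and 0.78 for Kif22, both of which bind chromosomes. Kif2c and Kif15 were not well above background in any WT mouse and were at least 1.48-fold and at least 1.43-fold higher in WTC, well above background there in 4 of 5 mice each. The fit of array ratios gave less, 1.31-fold for each, and the separate-channel fit 1.49-fold and 1.46-fold. Kif2c has a second probe, also not well above background in any WT mouse, which gave 0.81 in the fit of array ratios where the chosen one gave 0.39. Hmmr and Ckap2l gave 1.09 and 1.39.

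For the central spindle and cytokinesis, 5 of 6 genes passed in the separate-channel fit. Prc1, which bundles the central spindle, lay at 6.92, 7.18 and 7.95 in WT. Its WTC levels ran from 9.95 through a median of 10.71 to 11.76, all above WT. The ratio was 2.49 ± 0.45 (adjusted p = 0.084) in the fit of array ratios and 3.27 ± 0.48 (9.64-fold; adjusted p = 0.00026) by separate channels. Kif20a and Kif23, motors of the central spindle, gave 2.39 and 1.47, and Ect2 and Racgap1, which position and activate the contractile ring, 1.97 and 1.16. Anln (anillin, a scaffold of the contractile ring) was the exception. It was well above background in all 22 channels, ran from 11.52 to 12.17 in WT and from 11.65 to 12.44 in WTC, and its ratio was 0.18 ± 0.22 (adjusted p = 0.54).

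Partners of the anaphase-promoting complex and of sister chromatid cohesion split in the same way, with 4 of 5 passing in the separate-channel fit. Cdc20, which activates the complex, had WT levels of 7.82, 8.06 and 8.58. The 5 WTC levels were 10.31, 10.84, 10.91, 11.13 and 11.75. Again the groups were separate, with ratios of 2.12 ± 0.41 (adjusted p = 0.095) and 2.65 ± 0.41 (6.26-fold; adjusted p = 0.00039). Ube2c, the ubiquitin-conjugating enzyme of the complex, gave 3.23 (9.41-fold), Cdca5 (sororin, which protects cohesion) 2.82, and Cdca3 2.97. Pttg1 (securin, which restrains separase) was well above background in all 22 channels and gave -0.06 ± 0.14 (adjusted p = 0.76), with 13.74 to 14.04 in WT and 13.30 to 14.13 in WTC. Its second probe gave -0.20 in the fit of array ratios, where the brightest gave 0.06.

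**Figure D3:**
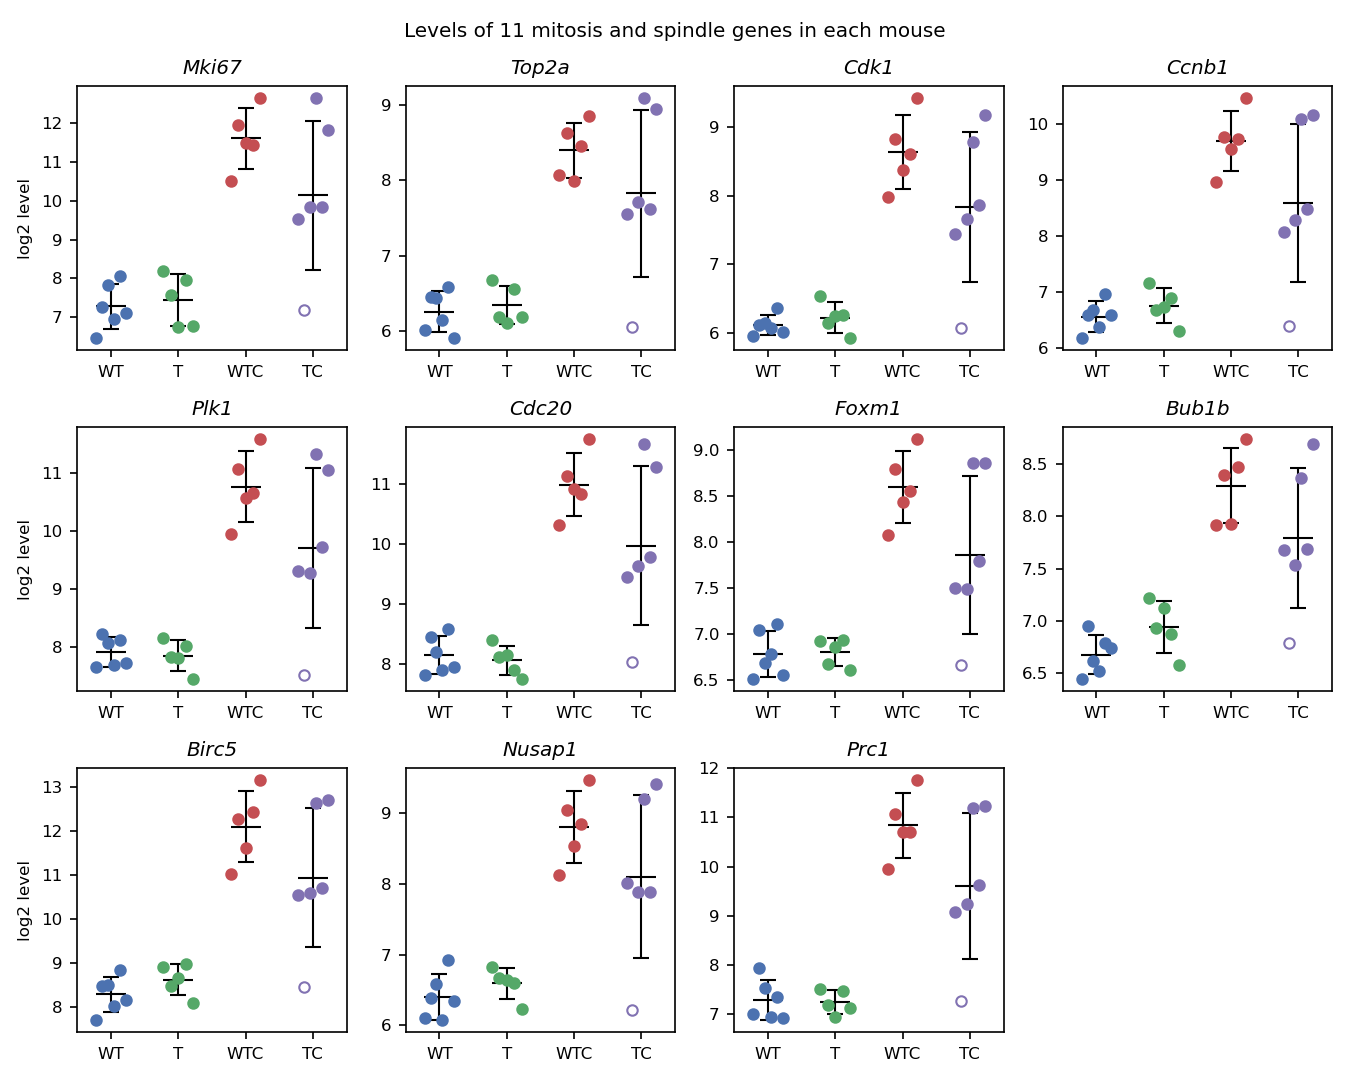
Log2 levels (y axis) of 11 genes in each mouse by group (x axis), with mean ± SD; the open TC point is the mouse of array I. In all 11 panels the 5 WTC points lie above all WT and T points, and the open TC point lies among the intact mice.

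The lesion in transgenic cortex was compared next (TC minus T). The ratio was above 0 for 42 of 43 genes in the fit of array ratios, with a median of 0.70 (1.63-fold) against 0.01 over all features. In that fit none of the 43 passed (smallest adjusted p 0.31), and 0% of all features were called up. An unadjusted p under 0.05 was seen upward for 21 of the 43 and for 1810 of 26082 features. The separate-channel fit called 23 of 43 up at a median of 1.09 (2.12-fold), where 4.62% of all features were called up. Slide as a further term left 5 (Cdk1, Ccnb2, Pbk, Prc1 and Cdc20), where 2.56% of all features were called up. Of these 5, Cdk1 passed the filter only with the lesioned mice counted. Within slide 1, 4 were called (2.68% of all features), but slide 1 holds 1 TC mouse, which is there assumed to vary like the mice of the other groups. Without the TC mouse of array I, 38 of 43 were called at a median of 1.45 (2.73-fold), where 8.07% of all features were called up, and these 38 include the 23. Of the 37 genes that pass on the intact mice alone, 20 were called up with all mice (median 1.13). Without the TC mouse of array I, 32 of these 37 were called up (median 1.66).

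With all 6 TC mice, TC lay wholly above T for 0 of 42 genes (2.1% of all features). Without the mouse of array I it did so for 34 of 42 (7.01% of all features). Those 42 include the 6 genes that passed the filter only with the lesioned mice counted. On array J the median TC minus T ratio was 1.0 with 43 of 43 genes above 0, and on array I it was -0.08 with 11 of 43 above 0. The 2 arrays that hold both groups thus differ in sign. The genes that did not pass in either version were Melk, Mad2l1, Kif22, Anln and Pttg1.

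Values of single genes show the same split within TC. Mki67 lay at 6.75, 6.78, 7.57, 7.95 and 8.20 in T and at 7.18, 9.84 and 12.64 (lowest, median, highest) in TC, the lowest being the mouse of array I. The separate-channel ratio was 2.45 ± 0.64 (5.48-fold; adjusted p = 0.028), and 3.23 ± 0.49 (9.37-fold; adjusted p = 0.00024) without that mouse. Top2a was at 6.11, 6.18, 6.18, 6.55 and 6.67 in T and at 6.05, 7.67 and 9.09 in TC. In TC, 2 mice reached 8.94 and 9.09, above every WTC mouse, and 3 others stayed between 7.55 and 7.71. Its ratios were 1.34 ± 0.36 (adjusted p = 0.03) and 1.81 (adjusted p = 0.00014) without the mouse of array I.

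Cdk1 had T levels of 5.92, 6.15, 6.24, 6.26 and 6.54 and TC levels of 6.07, 7.76 and 9.18. Its probe met the filter only with the lesioned mice counted, so Cdk1 had to be higher there. It passed in the separate-channel fit (1.48 ± 0.35; 2.80-fold; adjusted p = 0.017) and without the mouse of array I (1.93; adjusted p = 5.9e-05). Ccnb1 was at 6.30, 6.67, 6.74, 6.90 and 7.16 in T and ran from 6.40 through 8.39 to 10.17 in TC. The lowest TC value again lay within the T range. Ccnb1 gave 1.67 ± 0.44 (3.18-fold; adjusted p = 0.029), and 2.23 (4.68-fold) without the mouse of array I. Ccnb2 had the smallest p of the 43 at 2.02 ± 0.42 (4.06-fold; adjusted p = 0.0096), and gave 2.59 (6.01-fold) without that mouse. Foxm1 lay at 6.61, 6.68, 6.86, 6.93 and 6.94 in T and at 6.67, 7.65 and 8.86 in TC, with a ratio of 0.96 ± 0.28 (1.94-fold; adjusted p = 0.042), or 1.26 (2.40-fold) without it.

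Bub1b, the checkpoint gene, lay at 6.58, 6.87, 6.93, 7.12 and 7.22 in T and at 6.79, 7.68 and 8.69 in TC. The ratio was 0.78 ± 0.23 (1.72-fold; adjusted p = 0.042), and 1.03 (2.04-fold) without the mouse of array I. Birc5 was at 8.09, 8.48, 8.66, 8.90 and 8.97 in T and ran from 8.46 through 10.65 to 12.69 in TC. Only its lowest TC value overlapped T, and the ratio was 2.11 ± 0.52 (4.31-fold; adjusted p = 0.022). Without that mouse it was 2.74 ± 0.40 (6.70-fold; adjusted p = 0.00015). Plk1 had T levels of 7.45, 7.81, 7.83, 8.03 and 8.16, TC levels of 7.53, 9.52 and 11.32, and a ratio of 1.65 ± 0.43 (3.14-fold; adjusted p = 0.029), which became 2.20 (4.59-fold) without it.

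Nusap1 was at 6.23, 6.60, 6.64, 6.67 and 6.82 in T and at 6.22, 7.95 and 9.42 in TC, with a ratio of 1.38 ± 0.37 (2.60-fold; adjusted p = 0.03), or 1.85 (3.61-fold) without the mouse of array I. Prc1 lay at 6.95, 7.12, 7.2, 7.48 and 7.51 in T and at 7.27, 9.43 and 11.23 in TC. Its ratio of 2.09 ± 0.47 (4.27-fold; adjusted p = 0.015) became 2.67 ± 0.35 (6.38-fold; adjusted p = 6.9e-05) without the mouse of array I. Cdc20 was at 7.74, 7.90, 8.11, 8.14 and 8.39 in T and at 8.03, 9.71 and 11.66 in TC, with a ratio of 1.76 ± 0.41 (3.39-fold; adjusted p = 0.017), or 2.23 (4.70-fold) without it. In each of these 3 genes the TC mice of arrays K and M were the highest of the group.

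By role, the separate-channel counts in TC minus T were 2 of 2 proliferation markers, 6 of 7 cyclins and entry regulators, 3 of 9 kinetochore and checkpoint genes, 2 of 4 Aurora, Polo and passenger genes, 3 of 10 spindle motor and assembly genes, 3 of 6 cytokinesis genes and 4 of 5 partners of the anaphase-promoting complex. Without the mouse of array I they were 2, 6, 8, 4, 9, 5 and 4. Of all features, 4.62% were called up with all mice and 8.07% without that mouse. These role groups include Cdk1, Bub1, Ndc80, Kif2c, Kif15 and Ckap2l, which passed the filter only with the lesioned mice counted. Spc25, Ube2c and Ccna2 gave 1.88, 2.08 and 1.93 with all TC mice, and 2.42, 2.75 and 2.52 without the mouse of array I. Bub1 was not well above background in any T mouse and was at least 1.80-fold higher in TC (well above background in 5 of 6 mice). Its fitted ratio was lower, 1.46-fold from array ratios and 1.73-fold by separate channels (adjusted p = 0.047, or 0.00073 without the mouse of array I). Kif2c and Kif15, likewise dim in T, were at least 1.38-fold and at least 1.24-fold higher, with 4 and 3 of 6 TC mice well above background. The fit of array ratios gave them 1.16-fold and 1.14-fold, and the separate-channel fit 1.31-fold and 1.28-fold (adjusted p of 0.078 and 0.089). Without the mouse of array I both passed, at 0.53 (adjusted p = 0.0051) and 0.48 (adjusted p = 0.0066). Mad2l1 gave 0.09 ± 0.17 and Melk 0.32 ± 0.34, and 0.23 and 0.69 without that mouse. Beside these genes, the medians of markers in TC minus T (fit of array ratios) were 0.73 for monocytes and macrophages (7 of 7 above 0), 0.61 for microglia (7 of 8) and 0.55 for astrocytes (7 of 8). They were -1.16 for excitatory cortical neurons and -1.51 for striatal neurons (0 of 8 each). Ccr2, a monocyte and macrophage marker, passed the filter only with the lesioned mice counted. The part of these cell types in the result was not tested.

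Intact transgenic mice were compared with intact wild-type mice (T minus WT). The median ratio of the 43 genes was 0.36 in the fit of array ratios and 0.19 in the separate-channel fit, against 0.00 over all features in both. The ratio was above 0 for 43 of 43 genes in the first fit (12833 of 26082 features) and 41 of 43 in the second (13509 of 26082 features). None of the 43 passed (smallest adjusted p 0.98, with 0% of all features called up). In each fit 1 gene had an unadjusted p under 0.05, Bub1b in the first (0.50) and Mad2l1 in the second (0.36). Of all 26082 features, 259 and 232 did so upward. On the 3 arrays that hold both groups the medians were 0.26, 0.01 and -0.09, with 37, 22 and 13 of 43 genes above 0.

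Lesioned transgenic and lesioned wild-type mice were compared directly (TC minus WTC). Of the 43 genes, 41 had a ratio below 0 in the fit of array ratios, with a median of -0.43 (0.744-fold) against -0.02 over all features. None passed (smallest adjusted p 0.42; 0% of all features called down). The separate-channel median was -0.64 (0.643-fold), with 14 genes at an unadjusted p under 0.05 and 0 at an adjusted p of 0.05 (0.023% of all features called down). Downward at an unadjusted p under 0.05 in that fit were 2361 of 26082 features. Nuf2, Ect2 and Bub1 had the smallest p there, with ratios of -0.52, -0.70 and -0.55 and adjusted p of 0.21, 0.23 and 0.26; without the mouse of array I they gave -0.39, -0.46 and -0.37. Without the mouse of array I the median was -0.37 and again none passed (0.0192% of all features called down). With a sex term in the fit of array ratios the median was -0.10. Y-linked genes were low in 0 TC mice and in 1 WTC mouse, the highest of its group for 36 of the 43 genes.

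The 3 arrays that pair TC with WTC did not share a direction. On array K 42 of 43 genes were higher in TC (median 0.78), on array L 41 were lower (median -1.13), and on array M 23 were higher and 20 lower (median 0.01). Mki67 gave -1.34 ± 0.62 (adjusted p = 0.3) in the separate-channel fit and -0.83 ± 0.46 (adjusted p = 0.44) without the mouse of array I. Top2a gave -0.46 ± 0.35 (adjusted p = 0.49) and Cdk1 -0.70 ± 0.34 (adjusted p = 0.31), and -0.16 and -0.41 without that mouse. Markers of choroid plexus and ependyma (median -2.45), striatal neurons (-2.09) and microglia (-0.43) had 0 of 8 ratios above 0 each in the fit of array ratios, and their part in the result was not tested. These medians include the mouse of array I, whose microglia level was below, and whose other 2 levels were within, the range of the other TC mice.

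The authors' deposited table of comparisons differs here. Its log ratios are read here as log2, since no base is stated. It gives the 43 genes a median TC minus WTC ratio of -1.25, with 21 of the 43 under an adjusted p of 0.05 and lower in TC, where 3.94% of its rows are. In the authors' deposited table Mki67 stands at -2.29 (adjusted p = 0.027), Ccna2 at -1.82 (adjusted p = 0.021) and Ndc80 at -1.47 (adjusted p = 0.015). For WTC minus WT the authors' deposited table gives a median of 2.64. Of the 22 genes whose adjusted p could be read there, 20 were under 0.05 and higher, against 9.41% of its rows. Cells above 1 in that column were not read. The 21 genes not read include those with the largest ratios in the authors' deposited table: Mki67 (4.79), Birc5 (3.99), Ube2c (3.95) and Prc1 (3.88). For TC minus T the authors' deposited table has a median of 1.23 and 14 of 43 under 0.05, against 1.62% of its rows. How that table treated array I is unstated.

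Whether the lesion effect itself differed between genotypes was tested as (TC minus T) minus (WTC minus WT). The difference was below 0 for 42 of 43 genes, with a median of -0.79 in the fit of array ratios and -0.85 in the separate-channel fit, against -0.02 over all features in both. None of the 43 passed (smallest adjusted p 0.81 in the fit of array ratios and 0.79 by separate channels). In the fit of array ratios 0% of all features were called down. An unadjusted p under 0.05 was seen downward for 5 genes in the fit of array ratios, where 640 of 26082 features had it. In the separate-channel fit it was seen for 10 genes and 894 features. Bub1b gave -0.73 ± 0.28 and Mad2l1 -0.66 ± 0.24, both at an adjusted p of 0.81. Mki67 had the widest difference, -1.59 ± 0.91. Without the mouse of array I the separate-channel median was -0.54 and the smallest adjusted p of the 43 was 0.99.

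Other genes of the cell cycle were read from lists, in the separate-channel fit that called 14.4% of all features up in WTC minus WT and 4.62% in TC minus T. Of 57 other mitotic genes 55 were measured, and 44 were called up and 1 (Cit, citron kinase of cytokinesis) down in WTC minus WT, at a median of 0.80. Ckap2 (a spindle protein), Kifc1 (a minus-end kinesin) and Cenpi (a centromere protein) had the smallest p in the fit of array ratios, with separate-channel ratios of 2.12, 1.20 and 1.21. Among 18 DNA replication genes 17 were called up at a median of 1.11. Those with the smallest p in the fit of array ratios were Pola1, the catalytic subunit of DNA polymerase alpha (0.87 ± 0.12), the thymidine kinase Tk1 (3.03 ± 0.52) and the ribonucleotide reductase subunit Rrm1 (1.07 ± 0.16), while Rrm2, its other subunit, had the highest ratio at 3.71. In TC minus T the counts were 14 of 55 and 6 of 18. Without the mouse of array I they were 38 of 55 and 13 of 18, where 8.07% of all features were called up.

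G1 and S phase regulators and brakes moved less. Of 15 measured cyclins, CDKs and E2F factors of G1 and S phase 9 were called up in WTC minus WT (median 0.61), with E2f8 at 1.75, the licensing factor Cdt1 at 1.37 and cyclin D3 (Ccnd3) at 1.02. Among 16 CDK inhibitors and pocket proteins 6 were called up and the median was 0.07; Cdkn2c (the CDK4 and CDK6 inhibitor p18) gave 1.98 and the pocket protein Rbl1 1.55. The 15 genes listed for the anaphase-promoting complex itself had a median of 0.05, with 3 up, a share near that of all features, and 1 (Fzr1, the Cdh1 activator) down at -0.34. Cdc20 and Ube2c, the partners named above, thus stood at 2.65 and 3.23 while the genes of the complex lay between -0.34 and 0.55.

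**Figure D4:**
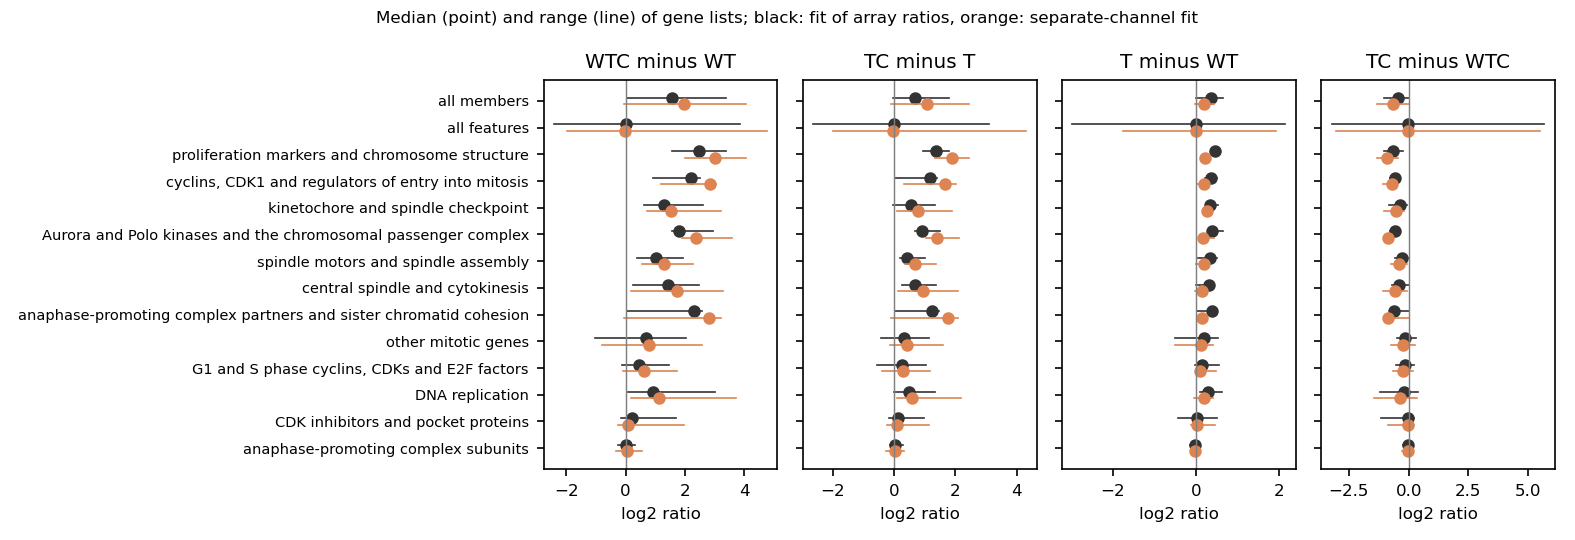
Median (point) and range (line) of log2 ratios (x axis) for the 43 measured genes, all features, the 7 role groups and 5 further cell cycle lists (y axis) in 4 comparisons. Black is the fit of array ratios and orange the separate-channel fit. In WTC minus WT the role group medians lie between 1.04 and 3.03, and the subunits of the anaphase-promoting complex near 0.

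Markers of cell types were read beside these genes. In WTC minus WT the separate-channel fit, which called 14.4% of all features up, called up 7 of 7 measured monocyte and macrophage markers (median 1.71), 6 of 8 microglia markers (1.31), 5 of 8 astrocyte markers (0.65), 3 of 6 neutrophil markers (0.42), 3 of 8 fibroblast and pericyte markers (0.58), 2 of 8 oligodendrocyte precursor markers (0.38) and 2 of 8 endothelial markers (0.29). The last 2 counts are near the share of all features. Among the monocyte and macrophage markers Ccr2, and among the neutrophil markers Mpo and Mmp8, passed the filter only with the lesioned mice counted. The filter thus favoured higher levels of these genes there. Of 8 striatal neuron markers all 8 had a ratio below 0 (median -0.83) and 1 was called down. The summed marker level, as a mean log2 value, ran from 7.31 to 8.09 in intact mice and from 9.0 to 10.57 in WTC for monocytes and macrophages, from 11.52 to 12.24 and from 12.83 to 13.58 for microglia, and from 11.88 to 12.21 and from 12.92 to 13.14 for astrocytes. For fibroblasts and pericytes the range was 8.83 to 9.25 in WT and 9.11 to 10.18 in WTC.

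Of the 8 neutrophil markers, Ngp and Ltf were well above background in 0 of 5 WTC mice, Mpo in 3, and S100a8, S100a9, Camp, Elane and Mmp8 in 5 (Mmp8 in 0 of 6 WT mice). Of 8 lymphocyte markers 4 were measured and 0 were called; Cd3e and Cd4 were well above background in every mouse and Ms4a1 in none. Choroid plexus and ependyma markers had a median of 1.61 in WTC minus WT with 1 of 8 called, and ran from 8.49 to 12.47 in WT and from 9.94 to 12.58 in WTC. The 8 markers of subventricular zone neuroblasts had a median of -0.18, with 2 called up. The part of each cell type in the levels of the mitosis and spindle genes was not tested.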

How the data were processed

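The deposited array files hold linear intensity values (median pixel brightness of spot and background) written by Agilent's Feature Extraction software, per the file headers; these were not normalized by the authors. Feature Extraction's LogRatio, a log10 ratio per the file headers, served only as an alternative. The authors also deposited log ratios (base not stated, read here as log2) and adjusted p-values of 3 comparisons; the submitters' processing notes name limma (version not given in the sources used here).

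Background was corrected with normexp (offset 50) and ratios were normalized by loess in limma 3.58.1 under R 4.3.3. The filter kept 35552 probes, those above background in 5 or more of the 22 channels, and then the brightest per gene, giving 26082 features; accessions were matched to RefSeq symbols of GRCm38.p6 (26762 probes with 1 symbol). Median signals were used where the plan named mean signals. The ratio model (lmFit, then eBayes; two-sided tests, 7 residual degrees of freedom) had a dye term and Benjamini-Hochberg adjustment over all features at 0.05. The separate-channel fit used Aquantile values, a dye term and array as a random block (correlation 0.295, 17 residual degrees of freedom). Levels are log2 channel values with the dye effect removed. Each mouse was on 1 array, so p-values measure the spread between mice, and the number of arrays limits precision. At least-fold bounds set the bright group's mean against the dim group's mean of the higher of the probe's own signal and the lowest signal well above background on each array. Without balanced dye swaps they are open to dye bias, and some lie above the fitted ratios.

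The genes, lists and tests were chosen with earlier results of these data known. Genes with values in every mouse are Mki67, Top2a, Cdk1, Ccnb1, Plk1, Aurkb (not measured), Cdc20 and Foxm1, and the gene with the smallest p in WTC minus WT in each role group; Anln, Pttg1, Mad2l1 and Melk were singled out after their values were seen, as were the genes named from other lists beyond the 3 with the smallest p. Scripts were tested on simulated data. Alternatives were other background corrections, normalizations, filters, probe rules, dye and slide terms, array weights, subsets of arrays, the channel 2 labels, a sex term and leaving out each array.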

Additional observations from a re-analysis of the deposited data

How the results depend on the processing

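The count of the 43 genes called up in WTC minus WT (0 in the fit of array ratios) was 41 with array weights, 41 in the separate-channel fit, 40 with its slide term, 41 without the TC mouse of array I, 42 within slide 1, 35 on the arrays of slide 1, 25 with a sex term and 36 when arrays I, J and K were dropped. In TC minus T it was 25, 23, 5, 38 and 4 under the first 5 of these, and in TC minus WTC 6 were called down with array weights. The median was 2.40 from Agilent's LogRatio in WTC minus WT, and 1.45 in TC minus T once the TC mouse of array I was left out. Leaving out each array in turn gave 0 to 35 called in WTC minus WT (35 without array K) with medians of 1.17 to 1.91, and 0 called in the other comparisons, with medians of 0.52 to 1.33 in TC minus T and -0.77 to -0.26 in TC minus WTC. Shares of all features called in the separate-channel fits stand with the comparisons above. In WTC minus WT without the TC mouse of array I, 4224 of 26082 features were called up. For the other settings no share is given here, so their counts are not set against all features. The cause of the changes in counts and medians was not tested. Over all other alternatives the TC minus WTC median ran from -0.99 (arrays of slide 1) to -0.10 (sex term), and that of T minus WT from 0.03 (pairing arrays alone) to 0.77 (sex term); Y-linked genes were low in 2 WT, 1 T, 1 WTC and 0 TC mice. Among the 11 genes described mouse by mouse, signs turned in T minus WT for Plk1 -0.01, Cdc20 -0.04 and Prc1 -0.03 with the slide term, Cdc20 -0.02 without the TC mouse of array I, Foxm1 -0.02 and Prc1 -0.03 within slide 1, Foxm1 -0.05 on the arrays of slide 1, and Mki67 -0.03, Top2a -0.01, Plk1 -0.01, Cdc20 -0.06 and Foxm1 -0.10 on the pairing arrays alone. In TC minus WTC Top2a turned to 0.13 on slide 2, 0.16 with a sex term and 0.01 without array L, and ran down to -0.72 without array K. With the second-channel labels for arrays I, J and K, 0 were called and the TC minus T median was 0.30. Slide 2 holds no WT mouse and gives no WTC minus WT value.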
